A study of Mus musculus with 3 samples.

Results

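Retained-intron isoforms are annotated transcripts of a gene that hold bases of an intron which the gene's coding transcripts remove. All transcripts with the biotype retained_intron in the GENCODE M21 annotation were taken, which gave 21848 of 141767 annotated transcripts, in 9421 of 55450 genes. For each gene and library, the share was the percent of the gene's TPM (abundance corrected for transcript length and scaled to a fixed sum per library) that fell in these transcripts, and it was read for genes with at least 5 TPM in all 3 libraries in both transcript tables. This floor was passed by 2279 genes, of which 1426 had a retained-intron isoform and 853 had none. The 1426 genes carried 3777 of the isoforms, and the other 18071 isoforms lay in 7995 genes that did not pass. Just inside the floor, Rgl2 had a lowest value of 5.0002 TPM, and just outside it Cttnbp2nl had 4.996 TPM.

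The study sequenced ribosome-depleted RNA from the cytosolic fraction of primary bone-marrow-derived macrophages of C57BL/6J mice after 20 min with 100 ng/ml Lipid A, the part of lipopolysaccharide that Tlr4 senses. The condition has 3 libraries, which the labels number 1 to 3 as biological replicates but give the same donor identifier, so their SD measures a spread that may be technical. Each library had a transcript table made from alignments and a transcript table made directly from the reads; both used the same reads and annotation. Unstimulated cells and the nuclear fraction were not analysed here, so the values are levels and say nothing of induction.

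Splicing removes introns from the primary transcript, and an mRNA that keeps an intron is usually held in the nucleus or, if exported, often carries an early stop codon that marks it for nonsense-mediated decay. In some genes, among them those of SR proteins and the Clk kinases that phosphorylate them, introns are spliced slowly and the full-length polyadenylated RNA waits in the nucleus. The annotation class is broader than that. It holds transcripts that keep a whole intron and also fragments that start or end inside one, and abundance is assigned to each by the bases that tell it from the gene's other transcripts.

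Several isoforms of high share had few bases outside the exons of coding transcripts. For such bases, 2 frequent forms are shown here from the M21 transcript sequences on mm10. In the first form a whole intron of a coding transcript lies inside an exon of the isoform. The lines below give such introns with up to 10 flanking exon bases on each side, 5′ to 3′ on the gene's strand, and capitals mark the GT and AG at the ends of the intron. They are Rps20 (192 bases, chr4:3835292-3835483, minus strand), Prelid1 (82 bases, chr13:55324445-55324526, plus strand), Psmb8 (190 bases, chr17:34199381-34199570, plus strand) and Cxcl2 (92 bases, chr5:90904024-90904115, plus strand), all between coding exons.
Rps20-201: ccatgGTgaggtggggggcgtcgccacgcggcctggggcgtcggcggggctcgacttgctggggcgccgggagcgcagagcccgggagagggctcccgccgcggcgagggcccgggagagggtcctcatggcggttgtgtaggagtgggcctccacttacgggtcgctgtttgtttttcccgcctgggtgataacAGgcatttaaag
Prelid1-202: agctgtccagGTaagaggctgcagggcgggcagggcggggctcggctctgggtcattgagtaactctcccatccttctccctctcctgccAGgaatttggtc
Psmb8-205: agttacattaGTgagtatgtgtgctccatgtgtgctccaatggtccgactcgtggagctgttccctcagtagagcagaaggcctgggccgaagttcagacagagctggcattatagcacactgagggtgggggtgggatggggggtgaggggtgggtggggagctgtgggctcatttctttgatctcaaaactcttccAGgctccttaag
Cxcl2-203: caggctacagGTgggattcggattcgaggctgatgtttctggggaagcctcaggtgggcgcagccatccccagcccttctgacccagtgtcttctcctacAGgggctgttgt

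For the longer introns, only the ends are shown, with the same capitals. Dusp1-204 keeps a 334-base intron (chr17:26506651-26506984, minus strand) and Rsrp1-204 a 1302-base intron (chr4:134925433-134926734, plus strand), both between coding exons, and both genes had their highest share in replicate 3.
Dusp1-204 start of intron: gacttcatagGTaaatggaataactatc
Dusp1-204 end of intron: cataactttattttccAGactccatcaa
Rsrp1-204 start of intron: aaaggtggagGTaagtgccttcaggaag
Rsrp1-204 end of intron: aattctcttcctctttAGcattcagaaa

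In the other form the isoform begins inside an intron and runs into the next exon. Here capitals mark the bases found in no exon of a coding transcript of the gene, which are the first bases of the isoform, and the lower-case bases are the next exon. Other isoforms end inside an intron, and some hold several such stretches. The stretches are Taf10 (98 bases, chr7:105743985-105744082, minus strand), Rps16 (68 bases, chr7:28350924-28350991, plus strand), Rfc2 (90 bases, chr5:134594119-134594208, plus strand) and Usp15 (16 bases, chr10:123127870-123127885, minus strand). They are shown because these 4 isoforms lead genes whose share was 82.0% or more in every value.
Taf10-202: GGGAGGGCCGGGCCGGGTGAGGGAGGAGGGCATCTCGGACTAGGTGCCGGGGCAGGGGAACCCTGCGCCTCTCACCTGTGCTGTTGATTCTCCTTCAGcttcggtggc
Rps16-203: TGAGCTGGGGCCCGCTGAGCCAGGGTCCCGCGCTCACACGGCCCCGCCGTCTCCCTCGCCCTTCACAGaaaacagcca
Rfc2-204: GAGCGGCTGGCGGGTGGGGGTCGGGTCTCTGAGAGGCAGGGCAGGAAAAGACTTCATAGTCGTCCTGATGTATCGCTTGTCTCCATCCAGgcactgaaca
Usp15: ATTGTCGCCCGCGTAGgtttgaaatt

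Expected counts summed to 27392626, 81597761 and 37176950 in replicates 1, 2 and 3 in the alignment-based tables, so replicate 2 was the deepest. Genes with a protein-coding transcript held 25.5%, 22.4% and 20.4% of TPM in those tables and 10.7%, 9.08% and 6.99% in the read-based ones; the TPM floor is therefore strict for mRNAs. All 8 macrophage markers, such as Csf1r and Adgre1, were at 1 TPM or more in every library. The summed markers of T and NK cells, B cells, erythroid cells, fibroblasts, dendritic cells and mast cells were each below 1 TPM, and of 5 neutrophil markers only S100a8 and S100a9 passed 1 TPM. This depends on the denominator. With TPM rescaled to genes with a protein-coding transcript, dendritic cell markers summed to 2.63, 3.26 and 3.08 and mast cell markers to 2.16, 1.65 and 1.96. Those of T and NK cells summed to 1.26, 0.357 and 0.245, and B cell, erythroid and fibroblast sums stayed below 1. Fewer cells of a type and less RNA per cell cannot be told apart in such bulk libraries. In the marker list of nuclear-retained RNA, 3 of 7 members were at 1 TPM or more in the alignment-based tables. The list summed to 394, 273 and 853 TPM in replicates 1, 2 and 3 there, and to 165, 107 and 263 TPM in the read-based tables. One of the 3, Xist, was at 1.17, 0.494 and 1.78 TPM in the read-based tables. The cytosolic label thus stood beside detectable nuclear RNA, with the highest level in replicate 3.

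Retained-intron isoforms held a small part of the mRNA pool. Over genes with a protein-coding transcript they held 2.86%, 2.95% and 3.27% of TPM in replicates 1, 2 and 3 in the alignment-based tables, a mean of 3.03% ± 0.215 (SD, n = 3). Read-based shares were 3.61%, 3.47% and 3.96%, a mean of 3.68% ± 0.254 (SD, n = 3). Over these genes both tables had the highest value in replicate 3. Over all TPM the order differed, with 0.733%, 0.664% and 0.673% in the alignment-based tables and 0.391%, 0.319% and 0.280% in the read-based ones, highest in replicate 1 in both. For scale, transcripts of the class nonsense_mediated_decay held 1.54% ± 0.0209 and those of the class processed_transcript 2.33% ± 0.0125 of the same TPM in the alignment-based tables (SD, n = 3). Of estimated counts, which weight longer RNAs more, retained-intron isoforms held 1.47%, 1.43% and 1.89% in the alignment-based tables.

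This abundance sat in few genes. The 10 genes with the most of it held 21.3% of retained-intron TPM in the alignment-based tables and 28.4% in the read-based ones, and 100 genes held 53.6% and 52.8%. Of the 21848 isoforms, 239 were at 1 TPM or more in every library and both tables, 190 of them in genes past the floor. No count was assigned in any library by either table to 4213 isoforms.

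In a typical gene past the floor the share was near 1%. The median over the 1426 genes was 0.827%, 0.755% and 1.66% in replicates 1, 2 and 3 in the alignment-based tables, and 1.37%, 1.10% and 2.62% in the read-based ones. A share of at least 10% in all 6 values, 3 libraries in 2 tables, was found in 148 genes (10.4%). At least 50% in all 6 values was found in 25 genes (1.75%), and below 1% in all 6 in 324 genes (22.7%). At the 10% threshold, Arrb1 lay just inside with a lowest share of 10.1% and Stx7 just outside with 9.97%. At 50%, Atp5j lay inside with 51.1% and Sri outside with 49.7%.

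**Figure D1:**
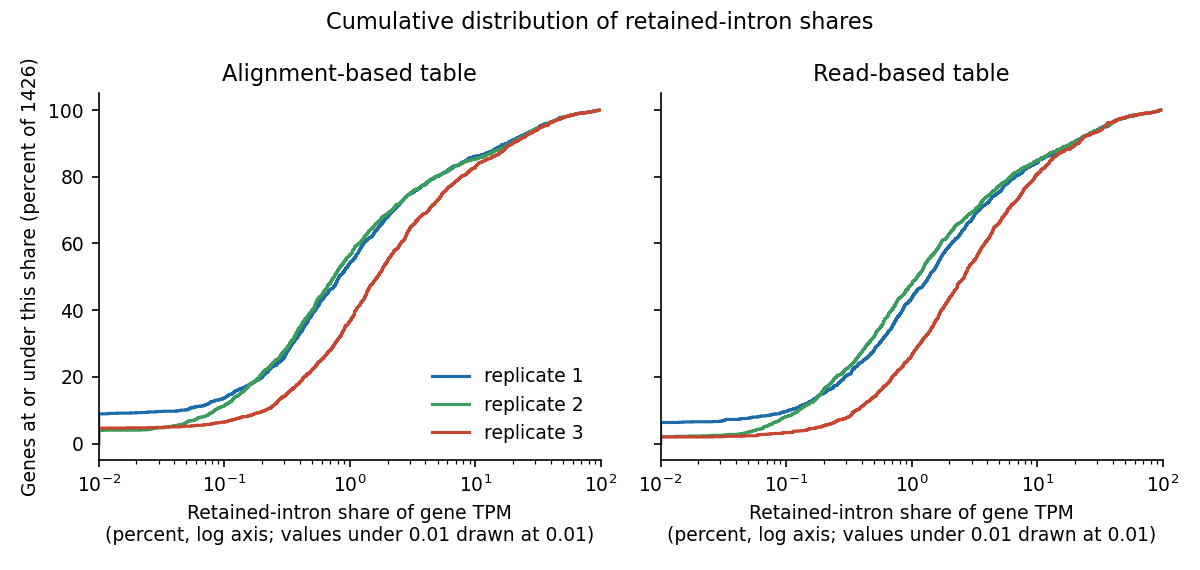
Cumulative percent of the 1426 genes (vertical axis) at or under each retained-intron share of gene TPM (horizontal axis, percent, log axis), with 1 line per library and 1 panel per transcript table. The line of replicate 3 lies to the right of the other lines over most of the range, with a median of 1.66% against 0.827% and 0.755% in the alignment-based tables.

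The share went with the number of annotated isoforms of a gene. Genes with 1 annotated retained-intron isoform (520 genes) had a median mean share of 0.477%, those with 2 or 3 (545 genes) 1.07%, those with 4 or 5 (244 genes) 2.88% and those with 6 to 20 (117 genes) 6.02%. The percent of genes at or above 10% in all 6 values went from 6.15% to 9.72%, 14.3% and 23.9% in the same order. These are descriptions across genes, which share libraries and are not independent.

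The genes whose annotated abundance lay mostly in retained-intron isoforms were basic cell machinery as well as macrophage genes. Taf10, a subunit of the general transcription factor TFIID, had a share of 95.5%, 95.8% and 94.8% in the alignment-based tables of replicates 1, 2 and 3 and of 96.5%, 97.0% and 95.9% in the read-based ones. Its leading isoform, the retained-intron isoform with the highest mean TPM in the alignment-based tables, was Taf10-202. The 98 bases of Taf10-202 outside coding exons, which other retained-intron isoforms of the gene may share, are printed above. That isoform was at 23.2, 22.2 and 17.2 TPM, from 432, 1414 and 522 expected counts, and the deposited interval bounds were 20.0 to 24.8, 20.6 to 23.1 and 15.2 to 18.5 TPM. The values of Taf10 in all libraries and both tables lay within a few percent of each other.

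Ribosomal protein genes of the small subunit followed. Rps20 had a share of 91.7%, 90.7% and 90.3% in the alignment-based tables and 92.7%, 92.2% and 91.5% in the read-based ones, with its leading isoform at 188, 158 and 118 TPM. Rps16 had 86.1%, 87.8% and 88.4%, and 92.3%, 92.9% and 91.1%. Ribosomal protein genes have many processed pseudogenes, so the split of their reads is uncertain. Rps20-201 keeps the whole intron that follows the start codon, while Rps16-203 begins 68 bases before an exon. Rps20 had 50.8% of estimated counts in such isoforms.

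Among the other genes of highest share, Usp15, a deubiquitinase, had 86.5%, 85.2% and 88.6% in the alignment-based tables and 91.8%, 91.9% and 92.5% in the read-based ones. Its leading isoform is 1587 bases long and 16 of those bases are in no coding exon, so most of its reads could come from a coding transcript as well. Prelid1, a mitochondrial lipid transfer protein, had 82.8%, 84.9% and 83.3%, and 81.8%, 81.8% and 79.4%, with 82 such bases in 1204. Ncl, the nucleolar protein nucleolin, had 79.1%, 79.0% and 76.3%, and 85.2%, 86.2% and 83.7%; Ncl-202 keeps 2 whole introns and has 682 such bases. Rfc2, a subunit of the clamp loader of DNA replication, had 82.0%, 82.7% and 83.9%, and 85.7%, 85.8% and 85.3%. In each of these genes the 3 libraries lay close together. Of estimated counts Rfc2 had 41.0%, and counting only isoforms at least 10% outside coding exons left 4.10% for Usp15 and 0% for Prelid1.

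The tables differed more for 2 genes of this group. Slc27a1, a fatty acid transporter, had 95.2%, 97.0% and 97.6% in the alignment-based tables and 70.6%, 72.3% and 69.0% in the read-based ones. Pirb, an inhibitory receptor of myeloid cells in a family of near-identical genes, had 70.5%, 59.6% and 70.2% against 93.2%, 94.2% and 92.9%. Reads of Pirb may be split among its relatives, so its share is uncertain, and isoforms at least 10% outside coding exons held 6.33% of it. Tmem132a, a membrane protein, completes the 10 genes of highest mean share, with 88.0% ± 0.235 and 89.1% ± 0.830 (SD, n = 3) in the alignment-based and read-based tables.

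The remaining genes at or above 50% in all 6 values had mean shares from 79.7% for Gm21188, which has near-identical copies, down to 54.3% for Tbcb, a tubulin folding cofactor. They were named because they make up this class, after their values were seen. Cd83, a surface protein of activated antigen-presenting cells, was one of them, with 76.0% ± 1.56 and 69.3% ± 2.11 (SD, n = 3) in the 2 tables; Cd83-202 keeps a whole intron of 95 bases in 2158. Subunits of mitochondrial and lysosomal proton machinery were present too: Ndufab1 of complex I, Atp5j of the ATP synthase and Atp6v1d of the vacuolar proton pump, with mean shares over the 6 values of 61.7%, 60.0% and 58.9%. The class also held Rab8a, a small GTPase of vesicle transport, at 60.9%, and Ufm1, a ubiquitin-like modifier, at 67.8%. Of the 25 genes, 7 had their highest share in replicate 3 in both tables, against 66.3% of all genes.

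**Figure D2:**
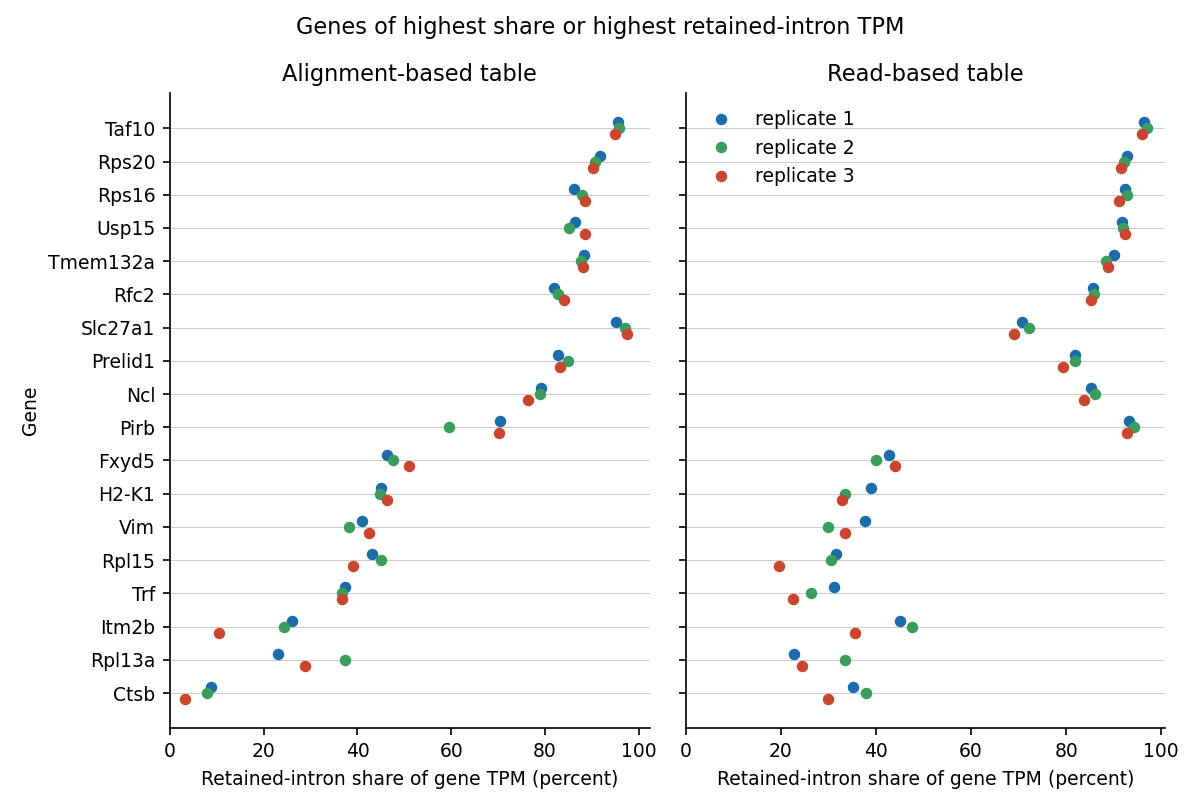
Retained-intron share of gene TPM (horizontal axis, percent) for the 10 genes of highest mean share and the 10 of highest retained-intron TPM, 18 genes in all, with 1 point per library and 1 panel per transcript table. The 6 points of Taf10 lie between 94.8% and 97.0%, whereas those of Ctsb lie between 3.14% and 8.74% in one panel and between 30.0% and 38.0% in the other.

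Retained-intron TPM was highest in abundant genes. Rps16 and Rps20, whose high shares are given above, were among the 10 with the most, at 190 ± 35.8 and 155 ± 34.9 TPM (SD, n = 3). The others had lower shares. H2-K1, a classical MHC class I heavy chain, had 299 ± 48.5 TPM (SD, n = 3) in these isoforms, with shares of 45.0%, 44.7% and 46.3% in the alignment-based tables and 39.0%, 33.5% and 32.8% in the read-based ones. Class I genes are near-identical in places, so this value is uncertain. Vim, the intermediate filament protein vimentin, had shares of 41.1%, 38.2% and 42.5%, and 37.8%, 29.9% and 33.5%. Trf, the iron carrier transferrin, had 37.3%, 36.7% and 36.6%, and 31.1%, 26.3% and 22.5%. Fxyd5, a regulator of the sodium pump, had 46.2%, 47.5% and 51.0%, and 42.8%, 40.1% and 44.1%. The leading isoforms of these 4 genes have 20, 52, 10 and 7 bases outside coding exons, in the order named, and Fxyd5-214 keeps a whole intron most of which is exon in another coding transcript. Counting only isoforms at least 10% outside coding exons left 1.89%, 0.309%, 0.203% and 0.191%. H2-K1 had 13.7%, Vim 11.1% and Trf 5.72% of estimated counts in such isoforms.

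The other genes of highest retained-intron TPM varied more between libraries or tables. Itm2b, a membrane protein, had 26.0%, 24.4% and 10.4% in the alignment-based tables against 45.0%, 47.6% and 35.6% in the read-based ones, lowest in replicate 3 in both. Ctsb, the lysosomal protease cathepsin B, had 8.74%, 7.90% and 3.14% against 35.2%, 38.0% and 30.0%, also lowest in replicate 3. Rpl15 had 43.2%, 45.0% and 38.9% against 31.7%, 30.5% and 19.7%. Rpl13a had 23.1%, 37.3% and 28.8% against 22.7%, 33.5% and 24.5%, and its leading isoform overlaps the small nucleolar RNA Snord33, whose reads cannot be told apart from it. Of estimated counts the shares were 10.5% for Itm2b, 0.932% for Ctsb, 24.6% for Rpl15 and 14.5% for Rpl13a, and isoforms at least 10% outside coding exons held 0% of Itm2b.

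High shares went with isoforms that differ little from coding transcripts. Over all 21848 isoforms, the median number of bases in no coding exon was 360, or 42.4% of the isoform's length. Among leading isoforms it was 92.5 bases (12.7%) for the 148 genes at or above 10%, 90 bases (10.8%) for the 25 genes at or above 50% and 379.5 bases (52.3%) for the 324 genes below 1%. A whole intron was kept in 6646 of all isoforms (30.4%), in 28 of the 148 leading isoforms (18.9%) and in 112 of the 324 (34.6%). In 97 of the 148 (65.5%), bases outside coding exons lay at the 5′ end of the isoform, as in Taf10-202. The same held for 18 of the 25 (72.0%) and 109 of the 324 (33.6%). Over all 1426 leading isoforms it was 612 (42.9%). At the 3′ end such bases occurred in 51 of the 148 (34.5%), 5 of the 25 (20.0%), 187 of the 324 (57.7%) and 762 of all 1426 (53.4%). When only isoforms that keep a whole intron were counted, an alternative added after seeing the data, 31 genes were at or above 10% in all 6 values and 6 at or above 50%.

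Sorting the genes by the percent of the leading isoform outside coding exons gave a steep gradient. Genes with under 10% (161 genes) had median shares of 9.49%, 13.2% and 14.3% in replicates 1, 2 and 3 in the alignment-based tables, and genes with 75% or more (252 genes) had 0.524%, 0.437% and 1.32%. Between these, the 265 genes with 10 to 25% had 1.82%, 1.94% and 2.90%, the 405 genes with 25 to 50% had 0.791%, 0.696% and 1.52%, and the 343 genes with 50 to 75% had 0.567%, 0.522% and 1.24%. The percent of genes at or above 10% in all 6 values was 38.5% in the first class and 0.794% in the last. The leading isoform was itself chosen by its TPM, and sorting by the mean over all of a gene's retained-intron isoforms, which uses the annotation alone, gave 28.9% and 1.23% in the first and last class. That sort gave lower medians for the first class (45 genes), 2.86%, 5.76% and 3.03%, and 0.391%, 0.282% and 1.05% for the last (162 genes).

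The same classes differed in how the libraries ranked. Across the 1426 genes, the share was highest in replicate 3 in both tables in 945 genes (66.3%), in replicate 1 in 70 and in replicate 2 in 87. From the class under 10% to the class of 75% or more outside coding exons, the percent highest in replicate 3 was 29.8%, 46.4%, 67.2%, 79.6% and 90.9%. Sorting by annotation alone gave 15.6%, 43.3%, 60.0%, 78.8% and 94.4%. Genes whose leading isoform lay mostly outside coding exons thus most often had their highest share in replicate 3. This percent also differed with the mean share itself. It was 70.6% for genes with a share under 1%, 77.6% at 1 to 5% and 24.5% at 20 to 50%. The median percent of the leading isoform outside coding exons was 51.7%, 47.3% and 11.9% in the same order. Which of these features the replicate 3 result followed was not tested. The nuclear-retained marker RNAs Malat1 and Neat1 were also highest in replicate 3, at 359, 248 and 763 TPM and at 31.7, 23.6 and 83.9 TPM, and their part in the result was not tested. The median difference in share was 0.584 percentage points between replicates 3 and 1 and 0.575 between replicates 3 and 2 in the alignment-based tables, against -0.0239 between replicates 2 and 1. With 3 libraries of 1 condition the smallest 2-sided exact sign-flip p is 0.25, so no test was made.

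**Figure D3:**
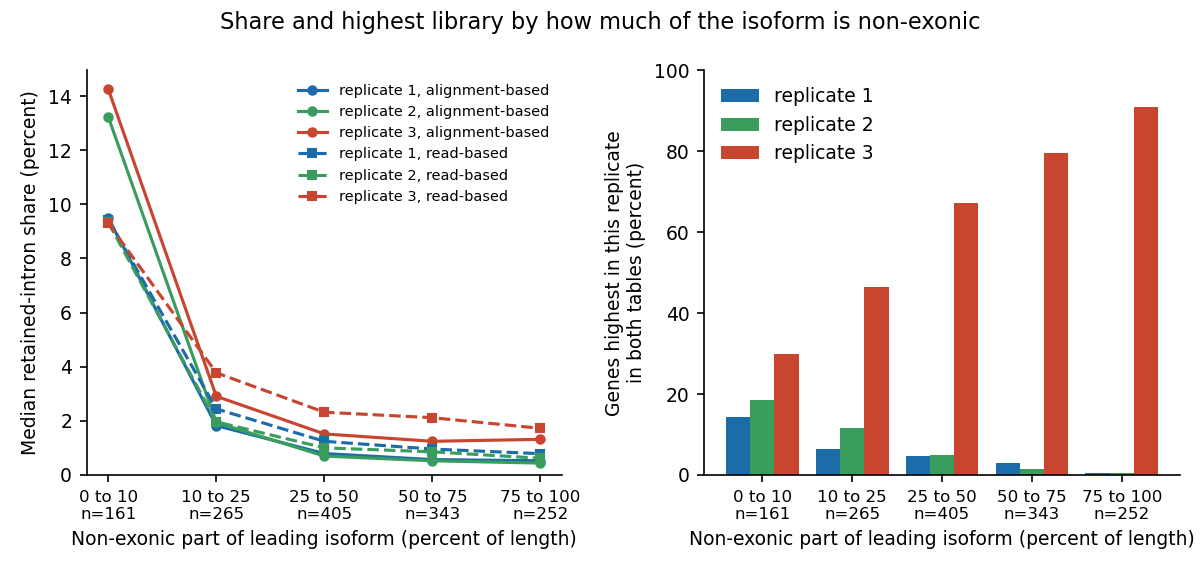
Left, median retained-intron share (percent) by library and transcript table for 5 classes of genes, sorted by the percent of the leading isoform's length outside coding exons (horizontal axis, with the number of genes); right, percent of genes whose share was highest in each replicate in both tables, as bars from 0. The median falls from the first class to the next, and the bar of replicate 3 grows from 29.8% to 90.9%.

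SR proteins bind exons and recruit the splicing machinery, and their genes past the floor had their highest share in replicate 3. All 10 SR and SR-like proteins past the floor with such an isoform were highest there in both tables, against 66.3% of all genes. This was not particular to them. The lists ran from 2 of 5 MAP kinase genes to 16 of 17 glycolysis and citric acid cycle enzymes and all 5 TLR4 signalling genes. With the floor at 5 TPM after rescaling to genes with a protein-coding transcript, 19 of 21 SR genes were highest there, against 58.6% of all genes. The median share of the 10 SR genes was 4.05%, 3.49% and 8.18% in the alignment-based tables and 4.30%, 3.78% and 9.37% in the read-based ones. Of the 10, 2 were at or above 10% in all 6 values, against 10.4% of all genes. Rsrp1, an arginine- and serine-rich protein, had 21.6%, 13.7% and 31.7%, and 19.3%, 12.4% and 28.6%. Luc7l2, a U1 snRNP-associated factor, had 16.6%, 12.3% and 27.8%, and 18.3%, 14.1% and 26.9%. Srsf5 and Srsf2, which bind exonic enhancers, had 4.02%, 2.51% and 7.53% and 3.81%, 3.19% and 6.29% in the alignment-based tables. In these 4 genes replicate 2 was lowest and replicate 3 highest. Of estimated counts the mean share was 37.9% for Rsrp1 and 9.59% for Srsf5, higher than of TPM.

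Core spliceosomal proteins had a median of 2.92%, 2.03% and 7.30% over 8 genes, of which 5 were highest in replicate 3 in both tables, near the 66.3% of all genes. Snrnp70, the 70K protein of the U1 snRNP, had 8.10%, 7.46% and 17.2%, and 8.01%, 7.43% and 16.7%. Among 13 other RNA-binding and splicing regulators, 10 were highest in replicate 3, also near that 66.3%, and the median was 2.10%, 2.08% and 4.92%. Rbm39, a splicing coactivator, had 8.58%, 7.64% and 17.9%, and 14.8%, 10.7% and 22.3%. Matr3, a nuclear matrix RNA-binding protein, ordered the libraries differently, with 19.6%, 12.3% and 16.8% in the alignment-based tables. In estimated counts Rbm39 had a mean share of 3.73% and Matr3 of 9.23%. For hnRNP proteins (14 genes) the median was 0.508%, 0.594% and 1.44% in the alignment-based tables, below that of all genes there.

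The regulators of splicing best known for retained introns did not pass the floor. They are reported because they were listed for this question, and those given here were picked after their values were seen. Clk1, a kinase of SR proteins, was at 8.74, 6.99 and 8.02 TPM in the alignment-based tables but at 3.92, 3.10 and 3.14 TPM in the read-based ones, with shares of 20.3%, 17.2% and 31.4%, and 28.4%, 25.5% and 36.4%. Its relative Clk4 had 20.0%, 22.97% and 31.2%, and 27.0%, 25.6% and 38.5%. Ccnl1, a cyclin of splicing kinases, had 26.3%, 18.6% and 39.2%, and 40.2%, 34.1% and 50.5%. Ogt, the O-GlcNAc transferase, had 16.6%, 20.0% and 31.1%, and 18.04%, 20.5% and 33.3%. Tia1, an RNA-binding protein of stress granules, had 17.6%, 16.6% and 26.5% in the alignment-based tables. The 10 listed genes under the floor with such an isoform include Ogt and the NF-kB inhibitor Tnfaip3 as well as splicing regulators. Of these 10, 9 had their highest share in replicate 3 in both tables, against 66.3% of the genes past the floor. The exception was Luc7l3, with 3.65%, 0% and 2.94%, and 5.57%, 0.877% and 4.95%, and Srsf7 and Hnrnpdl were below 12% in every value. With the floor set at 5 TPM after rescaling TPM to genes with a protein-coding transcript, 5557 genes passed, 570 of them (10.3%) were at or above 10% in all 6 values and 3256 (58.6%) highest in replicate 3. Of 8 SR protein kinases past that floor, 3 were at or above 10% and 6 highest in replicate 3.

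**Figure D4:**
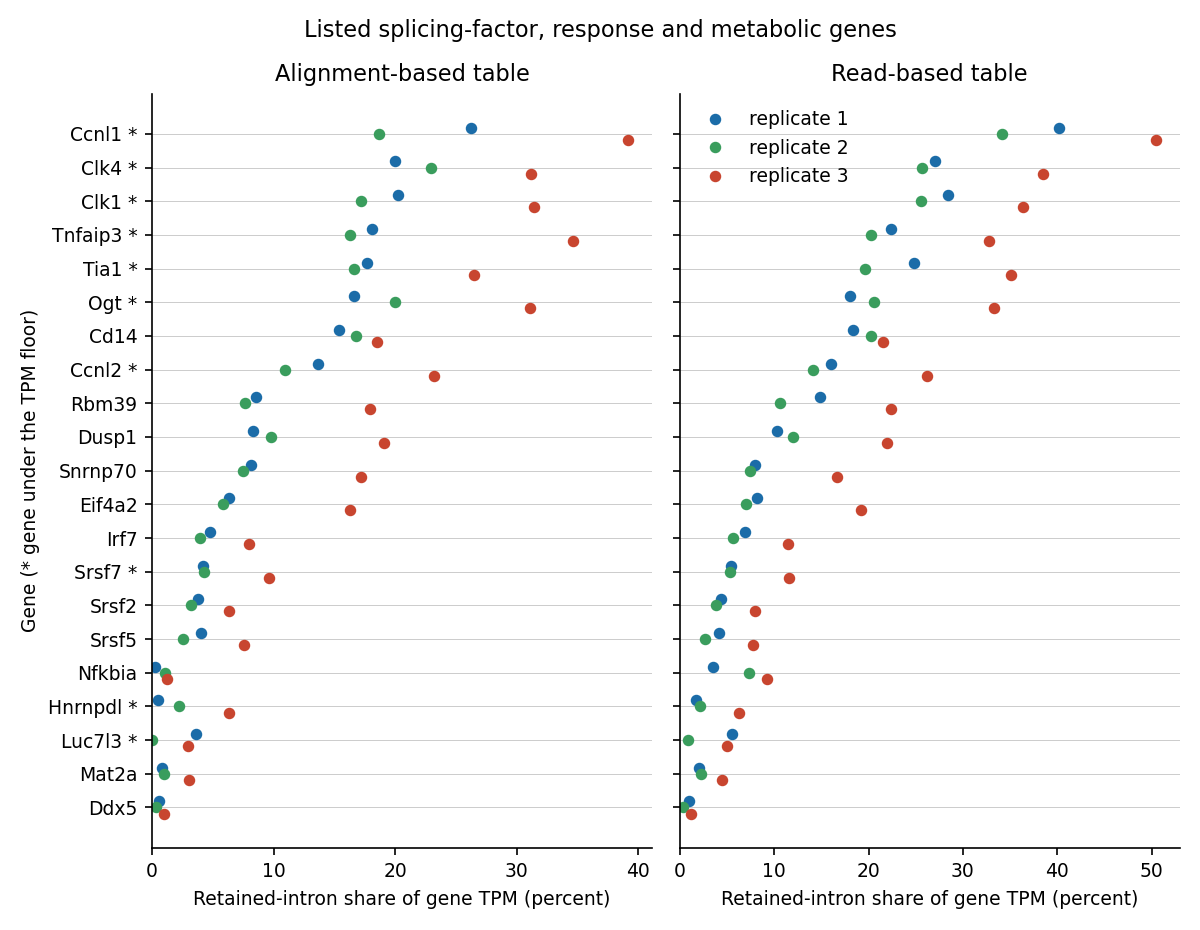
Retained-intron share of gene TPM (horizontal axis, percent) for 21 listed splicing-factor, response and metabolic genes that have such an isoform, with 1 point per library and 1 panel per transcript table; a star marks genes under the TPM floor. In Ccnl1, Clk1, Tia1, Rbm39 and Snrnp70 the point of replicate 3 lies to the right of the other 2 points in both panels.

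Genes of the inflammatory response also carried such isoforms. Cxcl2, a chemokine that draws neutrophils, had shares of 12.1%, 17.0% and 33.8% in the alignment-based tables and 15.4%, 21.6% and 36.2% in the read-based ones. Its leading isoform Cxcl2-203 was at 5.34, 2.84 and 6.17 TPM, from 495, 870 and 899 expected counts. This isoform is 1 exon of 2066 bases that keeps 3 whole introns, of 92, 117 and 748 bases. The 92-base intron is printed above, and only 209 bases of the isoform lie outside coding exons. Dusp1, a phosphatase that shuts off MAP kinases, had 8.30%, 9.82% and 19.0%, and 10.3%, 12.0% and 21.9%. Dusp2, of the same family, had 6.23%, 11.7% and 14.4%, and 7.30%, 14.0% and 16.6%. In these 3 genes the shares came in the same order, replicate 1 lowest and replicate 3 highest, in both tables. The gene totals were highest in replicate 1. They were 66.8, 23.2 and 23.3 TPM for Cxcl2 and 84.1, 57.3 and 61.8 TPM for Dusp1 in the alignment-based tables. For Dusp2 they were 60.8, 19.7 and 25.2 TPM. Dusp2-202, its only retained-intron isoform, was at 3.79, 2.31 and 3.62 TPM, so it was not lowest in replicate 1. Ccl2, a monocyte chemokine, had 2.08%, 3.19% and 7.71% in the alignment-based tables. Tnfaip3, the NF-kB inhibitor A20, lay under the floor, with 18.1%, 16.3% and 34.6%, and 22.3%, 20.2% and 32.7%.

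Other response genes ranged from shares below 1% to above 20%. Nfkbia, the NF-kB inhibitor IkBa, had 0.203%, 1.04% and 1.19% in the alignment-based tables and 3.53%, 7.27% and 9.25% in the read-based ones; its leading isoform has 32 bases outside coding exons. Cd14, the co-receptor of Tlr4, had 15.3%, 16.7% and 18.5%, and 18.3%, 20.2% and 21.5%. Irf7, a transcription factor of the interferon response, had 4.76%, 3.92% and 8.01%, and 6.92%, 5.67% and 11.5%. Stat2, a component of the interferon-activated factor, had 14.0%, 18.5% and 20.7%, and 17.9%, 23.6% and 25.3%. Of estimated counts the mean share was 8.47% for Cd14, 2.71% for Stat2, 0.290% for Nfkbia and 4.46% for Dusp2, and counting only isoforms at least 10% outside coding exons left 1.499% for Irf7 and 0% for Nfkbia. Tnf, Zfp36, Ier3 and Tlr4 have no retained-intron isoform in this annotation, so no share can be formed for them. Of 5 immediate-early genes with such an isoform, 4 were highest in replicate 3 in both tables (66.3% of all genes), and their median was 6.23%, 9.82% and 14.4% in the alignment-based tables.

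Antigen presentation genes had their highest median in replicate 2. The median over 13 genes was 1.19%, 6.13% and 2.19% in the alignment-based tables and 1.30%, 3.73% and 3.64% in the read-based ones, and 6 of 13 were highest in replicate 3 in both tables, against 66.3% of all genes; the difference was not tested. Psmb8, a subunit of the immunoproteasome, had 47.3%, 51.1% and 51.1%, and 48.8%, 49.7% and 50.9%, the highest mean share of its list. The antisense gene Gm20496 overlaps Psmb8-205 over 190 bases, as many as the printed intron holds, and without a known strand setting its reads cannot be told apart. Psma3, a subunit of the proteasome core, had 29.3%, 27.5% and 34.0%, and 37.5%, 37.3% and 43.6%. Aif1, a calcium-binding protein of macrophages, had 48.3%, 54.5% and 56.9%, and 39.2%, 41.7% and 41.8%, but every base of Aif1-205 lies in an exon of some coding transcript. Such bases can still be intron in another coding transcript, which was not examined. The share of Aif1 was 30.8% of estimated counts. Isoforms at least 10% outside coding exons held 0.395% of Psma3 and 0.0392% of Aif1.

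The lists of protein synthesis and energy metabolism had low median shares, with single high members. Of 41 ribosomal protein genes, 24 were below 1% in all 6 values, against 22.7% of all genes, while 4 were at or above 10% (10.4% of all genes) and 2, Rps20 and Rps16, at or above 50%. Their median was 0.347%, 0.359% and 0.551% in the alignment-based tables. Translation factors (22 genes) had a median of 0.523%, 0.510% and 0.990%, and none was at or above 10% in all 6 values. Eif4a2, an RNA helicase of translation initiation, was the member of highest mean share, with 6.30%, 5.85% and 16.3%, and 8.15%, 6.96% and 19.2%, and 3.40% of estimated counts. Glycolysis and citric acid cycle enzymes (17 genes) had 0.458%, 0.393% and 0.734%, and respiratory chain subunits (14 genes) 0.266%, 0.399% and 0.520%. That list does not hold Ndufab1, Atp5j or Cox7b, whose shares were high in 1 or both tables. Lysosomal hydrolases and cathepsins (21 genes) had 0.962%, 0.931% and 1.63%, near the median of all genes, with Ctsb as the member of highest mean share.

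Among chaperone, polyamine and chromatin genes, some members had high shares that depended on the unit. Hspa4, a heat shock protein of the Hsp110 family, had 28.8%, 28.0% and 30.6%, and 39.5%, 38.7% and 36.2%. Hsp90aa1 had 25.1%, 21.1% and 25.3% in the alignment-based tables and 29.8%, 20.7% and 12.7% in the read-based ones, with 13 bases outside coding exons in its leading isoform. Sat1, the enzyme that acetylates polyamines, had 6.56%, 4.76% and 13.4%, and 8.59%, 5.81% and 16.8%. Ep300, a histone acetyltransferase, had 46.5%, 34.7% and 42.4%, and 44.0%, 27.9% and 35.2%. Of estimated counts, which weigh long transcripts more than TPM does, the mean alignment-based share was 3.69% for Hspa4, 1.22% for Hsp90aa1 and 4.84% for Ep300. Counting only isoforms with at least 10% of their length outside coding exons, an alternative added after seeing the data, left 0.147% for Hsp90aa1 and 1.93% for Ep300. Only Sat1 among these 4 was highest in replicate 3 in both tables.

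**Figure D5:**
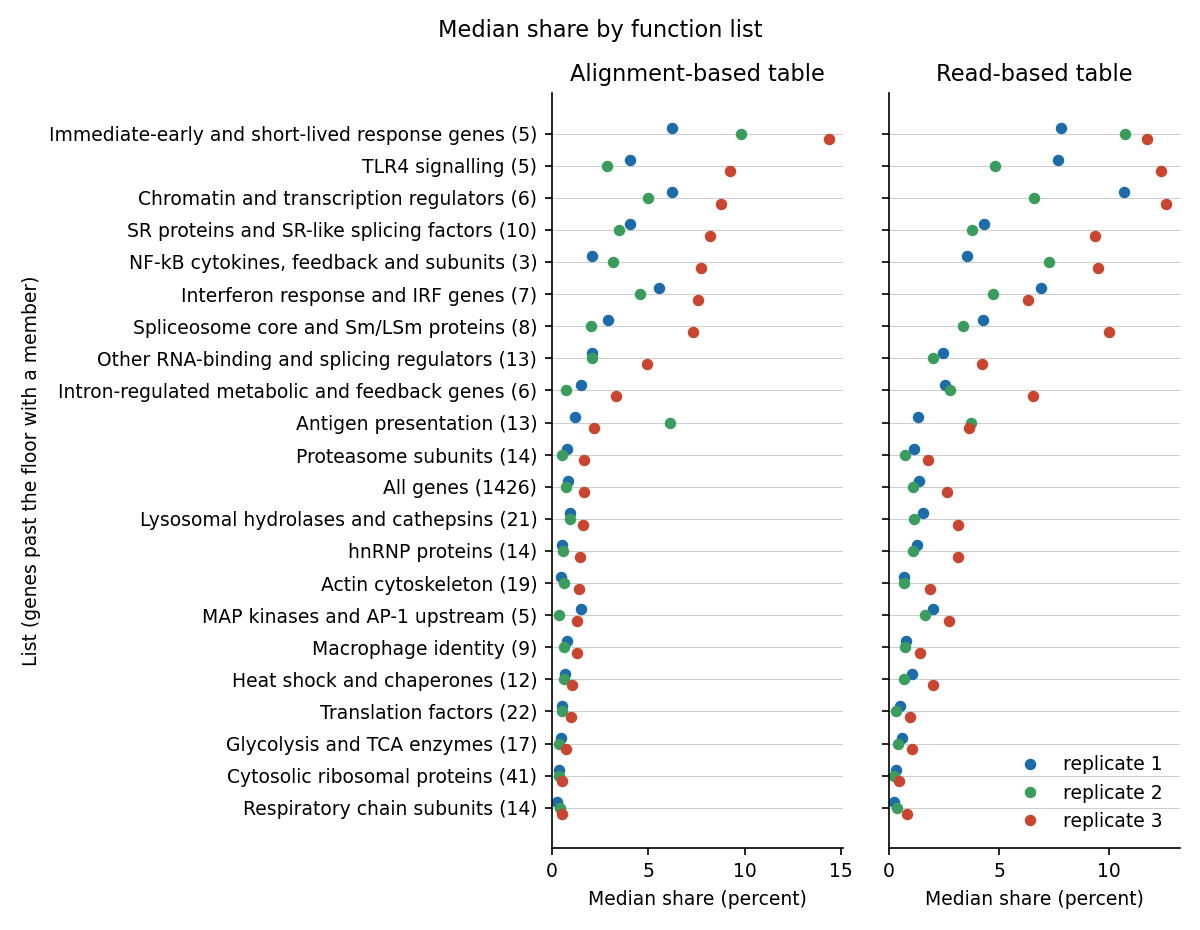
Median retained-intron share (horizontal axis, percent) of the function lists with at least 3 genes past the floor, with the number of genes in brackets, 1 point per library and 1 panel per transcript table. The lists of SR proteins, core spliceosomal proteins and immediate-early genes lie above the median of all 1426 genes in every library and both tables, and those of ribosomal proteins, respiratory chain subunits and glycolysis below it; antigen presentation genes are highest in replicate 2.

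The 2 tables gave similar ranks but not always similar values. Across the 1426 genes the mean shares had a Pearson coefficient of 0.904 and a Spearman coefficient of 0.872, as a description across genes that share reads, annotation and libraries. A difference above 10 percentage points was found in 111 genes, 51 higher in the alignment-based tables and 60 in the read-based ones. Cox7b, a subunit of cytochrome c oxidase, was listed at 0 in replicate 1 and had 1.64% and 5.81% in replicates 2 and 3 in the alignment-based tables, against 54.1%, 43.3% and 50.6% in the read-based ones. Clptm1, a membrane protein, had 41.1%, 26.2% and 40.0% against 80.4%, 81.5% and 81.4%. Cerk, the ceramide kinase, and Flii, an actin-binding protein, went the other way, with 39.2%, 49.6% and 44.8% against 10.7%, 11.7% and 10.8%, and 32.9%, 33.8% and 32.9% against 4.38%, 1.34% and 4.21%. Of estimated counts the alignment-based share was 1.01% for Cox7b, 17.1% for Clptm1 and 3.09% for Flii. Isoforms at least 10% outside coding exons held 14.1% of Clptm1 and 0% of Cerk. For such genes neither value can be preferred from these files.

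Genes with the largest spread between libraries included some with very few counts. Morc3, a chromatin-binding ATPase, had 26.3%, 2.27% and 26.7% in the alignment-based tables and 39.9%, 33.8% and 34.2% in the read-based ones. Its leading isoform of 246 bases rested on 9.49, 0 and 9.80 expected counts, and its deposited upper interval bounds were 10.2, 2.36 and 5.93 TPM. Plxnd1, a semaphorin receptor, had 31.7%, 41.0% and 25.7%, and 28.1%, 26.2% and 9.22%, with 6 bases outside coding exons in its leading isoform. Morc3 had 1.08% and Plxnd1 1.95% of estimated counts in such isoforms, and isoforms at least 10% outside coding exons held 3.57% and 14.1% of the TPM. Lilrb4a, an inhibitory receptor with near-identical relatives, had 32.2%, 22.6% and 43.9%, and 47.1%, 37.0% and 60.7%. Of the 778 bases outside coding exons in its leading isoform, 457 overlap exons of Gm49339 on the same strand.

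Introns that the annotation keeps whole were short. Over all members, 8869 distinct introns of at least 20 bases were kept whole, with a median of 280 bases, and 133730 other introns of the same genes had a median of 1502 bases. In genes past the floor the medians were 259 bases for 1596 kept introns and 1291 bases for 18489 others. Splice sites were of the usual kind: 98.1% of the kept introns began with GT and ended with AG on the transcript's strand, 1.20% with GC and AG, and 12 introns with AT and AC. Of the kept introns 91.4% lay within the coding span of a transcript, so that retention would place intron bases between coding exons. These are features of the annotation and not of the libraries.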

How the data were processed

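Groups and replicate numbers came from the labels. Per the file headers, each library had a transcript table made from alignments to the transcriptome and a transcript table made from the reads, on mm10 with GENCODE M21. The columns carry the names used by RSEM and by kallisto, but the software behind them, its version and the strand setting stand as not given in the sources used here. Sense and antisense reads therefore cannot be told apart. The authors deposited expected counts and estimated counts, which need not be whole, TPM values scaled to a fixed sum over all rows, and, in the alignment-based table, the percent of gene abundance per isoform and TPM interval bounds whose level is not stated. The deposited posterior mean TPM served only as an alternative.

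Transcripts were joined by identifier and summed by gene with pandas 2.3.3 in Python 3.11.15. The share is the retained_intron TPM over the TPM of all transcripts of the gene, with a floor of 5 TPM in all 6 values. Bases outside coding exons were counted from the M21 annotation, and sequences were cut from its transcripts. Known shares set over real gene totals were returned by the calculation, which checks its arithmetic and not the assignment of reads to isoforms.

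The members, 25 function lists and calls were chosen with earlier results of these data known. Of the list symbols, 3 did not match. Named genes were the 10 of highest mean share, the 10 of highest retained-intron TPM, a listed set, the 2 highest of each list, the 5 with the largest difference between tables and the 5 with the largest SD. Alternatives were the other table, counts, other floors and thresholds, a pseudocount of 0.1 TPM, coding genes only, and leaving out each library. The single condition allows no test between groups. The values of 1 gene and the sequence of 1 intron that these choices would give are not reported here.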

Additional observations from a re-analysis of the deposited data

How the results depend on the processing

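With estimated counts in place of TPM, the retained-intron share was 1.36% of all counts and 1.60% over genes with a protein-coding transcript, against 0.690% and 3.03% of TPM; 79 genes were at or above 10% and 15 at or above 50%, the Pearson coefficient between tables was 0.924, and 32 of the 75 named genes had a mean share of at least 10%, against 49. The read-based table gave 0.330% of all TPM, 3.68% over genes with a protein-coding transcript and a median gene share of 1.70% (the mean of the 3 library medians), against 1.08%. Without the 10 genes with the most retained-intron TPM the share over coding genes was 2.45%. The median excess of replicate 3 over the mean of replicates 1 and 2 was 0.603 percentage points, and 0.847 in the read-based table, 0.386 at a floor of 10 TPM and 0.334 with counts.

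At floors of 1 TPM, 10 TPM and 5 rescaled TPM, 7118, 1107 and 8997 genes passed, 458, 65 and 570 were at or above 10%, and 51, 11 and 56 at or above 50%. The median share was 1.72% at 1 TPM and 1.85% at 5 rescaled TPM, and 1.87% with a pseudocount of 0.1 TPM. At a threshold of 20%, 82 genes were called. Of the alternatives added after seeing the data, counting only isoforms at least 10% outside coding exons left 90 genes at or above 10%, 13 at or above 50% and 30 named genes; counting only those that keep a whole intron left 31 and 6. Highest in replicate 3 were 427 of 654 genes at 10 TPM and 3256 of 5557 at 5 rescaled TPM. Leaving out genes whose leading isoform overlaps a small RNA or another gene left 135 and 24.

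Leaving out each library in turn gave 0.669% to 0.703% of all TPM, 2.91% to 3.11% over coding genes, a median share of 0.868% to 1.25%, 155 to 198 genes at or above 10% and 25 to 34 at or above 50%. Shares and counts of genes cannot be negative, so of the values above only the excess of replicate 3 and the Pearson coefficient could change sign, and neither did. With counts, 49 of the 75 named genes moved by at least the SD of the libraries, and 48 did in the read-based table. Of 21 function-list medians, 12 moved by as much with counts and 9 did not, and 6 moved in the read-based table. With counts the median of immediate-early genes was 3.88%, against 10.1% of TPM, and that of SR proteins 4.74%, against 5.24%. The order of the libraries turned with the denominator: over all TPM the retained-intron share was highest in replicate 1, over coding genes in replicate 3. No paired analysis was possible because there was 1 group. The cause of these changes was not tested. Depth limits low isoforms most: a share far below 1% of a gene at 5 TPM rests on few counts.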
